A study of Triticum aestivum and Zea mays with 29 samples.

Results

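A cytosine base editor built on LbCas12a joins a deaminase to a Cas12a protein that can bind DNA but not cut it. A CRISPR RNA (crRNA) carries the spacer that leads the protein to a matching protospacer next to a T-rich PAM, and the deaminase then turns cytosines of the displaced strand into uracil, which is read as thymine after replication or repair. The crRNA itself has to be transcribed and trimmed in the plant cell before Cas12a can use it, so the cassette that expresses it is one of the parts of the tool that can be changed. The comparison described here was made in wheat protoplasts, leaf mesophyll cells without their walls taken from seedlings of the cultivar Fielder. It set 2 such cassettes against each other with 3 editors and 4 endogenous targets. The comparison drew on 3 of the 29 samples of the series, which are 3 amplicon libraries. Each replicate number of the deposited values was taken as the library of the same number, which no label states. The members were defined by the plasmid key printed with the deposited values and not by a limit on the values. Earlier results of these data were known when they were chosen.

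The cassettes go by the letters a and h. In system a, 35S:HH-spacer-HDV, the 35S promoter of a plant virus drives a transcript in which the crRNA lies between a hammerhead (HH) and a hepatitis delta virus (HDV) ribozyme, RNAs that cut themselves free. In system h, TaU3:tRNA-DR-spacer-DR, the wheat U3 promoter, which is read by RNA polymerase III, drives a truncated tRNA followed by a direct repeat (DR), the spacer and another direct repeat. Promoter, flanking RNA and number of repeats changed together, so their shares in any difference cannot be told apart. Each editor carried the human deaminase A3A, a uracil glycosylase inhibitor that protects the edited base from repair, the D832A change that removes DNA cleavage, and a GFP by which transfected cells were sorted. CBE1 and CBE4 used the earliest of these editors. CBE2 and CBE5 used an editor with the LbCas12a mutation D156R, which is known to raise Cas12a activity, another nuclear localisation signal and an XTEN linker. CBE3 and CBE6 used the same editor with a 6xGGGGS linker in place of XTEN. CBE1, CBE2 and CBE3 were delivered with system a and CBE4, CBE5 and CBE6 with system h, each in 3 replicates. A further 3 replicates, whose column headers read neg, were taken here as a control without base editor. For its Cas9 editors the paper describes such a control as cells given a GFP vector, and it does not describe the control of this experiment. The crRNA plasmids for all 4 targets were delivered together, so values at different targets within a replicate come from the same cells.

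The 4 protospacers are printed here because the gain differed between them. Each is the 4-base PAM followed by the 23-base spacer, 5′ to 3′, as given in the study's target list, and capitals mark the cytosines for which conversion was listed. Positions count from 1 at the base next to the PAM.
TS13-B: tttcttggaCgCtaataaCaCggtatg
TS60-A: tttctctcctaCaaagCtagagtatca
TS112-A: tttaaagataaatatgagtCagaccgt
TS121-D: tttgtctccCtaatattgCtCgtcttt
The target list assigns them to the wheat genes TraesCS3B02G554300, TraesCS5A02G371500, TraesCS5A02G401700 and TraesCS4D02G182700, in that order. Their place within these genes was not analysed here, because no wheat genome of the same annotation was at hand. The suffix names the subgenome that the crRNA matched fully. Listed values covered 10 of the 20 cytosines of these spacers, all 4 of TS13-B (C6, C8, C15 and C17), C8 and C13 of TS60-A, C16 of TS112-A, and C6, C15 and C17 of TS121-D.

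System h gave higher C-to-T conversion than system a at 5 of these 10 cytosines and lower conversion at 0 of them (exact permutation within editors, adjusted p under 0.05, and also 0 lower without adjustment). The cytosines that rose were 50% of those tested. The 5 were all 4 cytosines of TS13-B and C13 of TS60-A. Of the 30 pairs of editor and cytosine, 16 (53.3%) had all 3 replicates with system h above all 3 with system a, and 0 had them all below. By target these were 11 of 12 pairs at TS13-B, 4 of 6 at TS60-A, 1 of 9 at TS121-D and 0 of 3 at TS112-A. At TS112-A, 1 pair was listed at 0 throughout. By editor, 6 of 10 cytosines were separated for CBE4 and CBE1, 6 for CBE5 and CBE2, and 4 for CBE6 and CBE3. The plot of conversion at each cytosine shows every replicate.

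**Figure D1:**
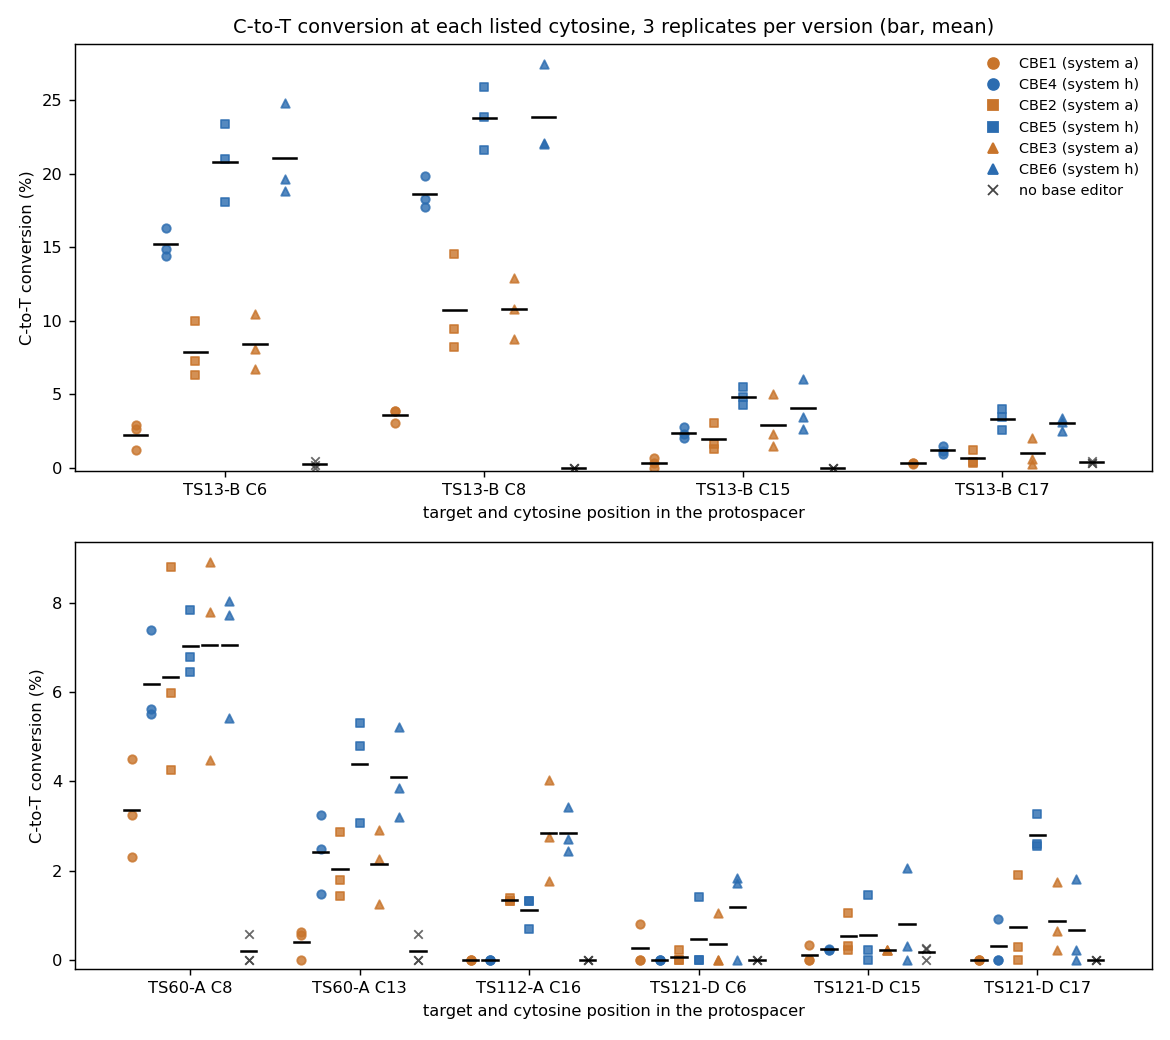
C-to-T conversion (%) at each listed cytosine for the 6 CBE versions and the control without base editor. Each point is 1 replicate, black bars are means of 3 replicates, orange is system a and blue is system h, and the upper and lower panels have different y axes. Blue points lie above the orange points of the same marker shape at C6 and C8 of TS13-B, between 14.4% and 27.45% against 1.18% to 14.51%, while both colours overlap at C16 of TS112-A.

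Background conversion was low. Of the 30 control values, 21 were listed at 0 and the highest was 0.58%, reached at both C8 and C13 of TS60-A in the same replicate. The smallest value above 0 anywhere was 0.21%, so small values and zeros have little resolution. The deposited table holds no read numbers beside the percents, and no counting interval was computed here. Averaged over cytosines and then over the 4 targets, the control stood at 0.0998% ± 0.0830 (SD, n = 3).

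At TS13-B the gain was present with each editor. At C6, CBE1 gave 2.63%, 2.89% and 1.18% in its 3 replicates and CBE4 gave 16.3%, 14.4% and 14.91%. CBE2 gave 6.31%, 7.24% and 9.99% at the same base and CBE5 gave 21%, 18.06% and 23.4%. CBE3 gave 10.46%, 6.7% and 8.11% and CBE6 gave 19.63%, 18.83% and 24.8%. In none of the 3 editors did the replicates of the cassettes overlap, and even the lowest value with system h, from CBE4, was above the highest with system a, from CBE3. In percentage points the gain at C6 was 12.97 for CBE4 over CBE1, 12.97 for CBE5 over CBE2 and 12.66 for CBE6 over CBE3. The SD of these differences without pairing of replicates was 1.35, 3.29 and 3.76 points in that order. As a ratio of means the gain was 6.81-fold, 2.65-fold and 2.50-fold. The mean over editors was 19.04% with system h and 6.17% with system a, a gain of 12.87 points with a 95% interval of 10.91 to 14.88 (exact permutation p = 0.00025, the smallest that 8000 arrangements can give, adjusted p = 0.000625 over 10 cytosines).

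C8 of TS13-B, the base with the highest mean conversion in each version, also rose. CBE1 gave 3.89%, 3.84% and 3.07% there and CBE4 gave 17.77%, 18.28% and 19.83%. CBE2 gave 8.22%, 9.46% and 14.51% and CBE5 gave 23.86%, 21.58% and 25.92%. CBE3 gave 12.92%, 8.76% and 10.8% and CBE6 gave 22.11%, 22.03% and 27.45%. All 9 values with system h were above all 9 with system a. The gain was 15.03 points for CBE4, 13.06 for CBE5 and 13.04 for CBE6, and 13.71 points over the editors (95% interval 11.51 to 15.89, exact permutation p = 0.00025, adjusted p = 0.000625).

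The cytosines of TS13-B far from the PAM were converted less but also rose. At C15, conversion went from 0.31%, 0.69% and 0% with CBE1 to 2.29%, 2.81% and 2.06% with CBE4. It went from 1.61%, 1.28% and 3.02% with CBE2 to 4.25%, 4.8% and 5.49% with CBE5. CBE3 gave 5.05%, 2.27% and 1.46% and CBE6 gave 2.65%, 6.07% and 3.44%. This last pair was the only one at TS13-B in which the cassettes overlapped. Over the editors the gain at C15 was 2.02 points (95% interval 0.82 to 3.15, exact permutation p = 0.0045, adjusted p = 0.009). That call did not hold without replicate 2, with a gain of 1.46 points and an adjusted p = 0.185 by exact permutation, nor without replicate 3, with 1.94 points and 0.0926, nor without the CBE4 and CBE1 pair, with 2.00 points and 0.09, nor without the CBE5 and CBE2 pair, with 1.59 points and 0.14.

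At C17 the control itself read 0.34%, 0.31% and 0.45%, the highest mean control level of the 10 cytosines. Only 3 of the 9 values with system a were above the highest control value there, against 9 of 9 with system h. CBE1 gave 0.24%, 0.33% and 0.34%, within reach of the control, and CBE4 gave 1.47%, 1.17% and 0.91%. CBE2 gave 0.35%, 1.22% and 0.37% against 3.45%, 4% and 2.56% with CBE5. CBE3 gave 2.02%, 0.28% and 0.63% against 2.51%, 3.14% and 3.4% with CBE6. No pair overlapped, and the gain was 1.87 points (95% interval 1.19 to 2.54, exact permutation p = 0.00025, adjusted p = 0.000625). It was the smallest gain in points of the target and, at 3.91-fold, the highest ratio of means of system h to system a among its 4 cytosines.

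Averaged over its 4 cytosines, TS13-B went from 1.62% ± 0.42 (SD, n = 3) with CBE1 to 9.35% ± 0.16 with CBE4. It went from 5.30% ± 1.49 with CBE2 to 13.20% ± 1.12 with CBE5. With the third editor it went from 5.79% ± 1.62 with CBE3 to 13.005% ± 1.58 with CBE6. CBE4, the earliest editor with system h, exceeded both later editors with system a at this target without overlap, by 4.05 points over CBE2 and 3.56 points over CBE3. At TS112-A it was below both without overlap, with differences of -1.34 and -2.85 points, and on the mean of the 4 targets it overlapped with both. The gain over the editors was 7.62 points (95% interval 6.46 to 8.76, exact permutation p = 0.00025, adjusted p = 0.001 over 4 targets). It was positive in 9 of 9 comparisons of equal replicate number, and TS13-B supplied 79.3% of the summed gain of the 4 targets.

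**Figure D2:**
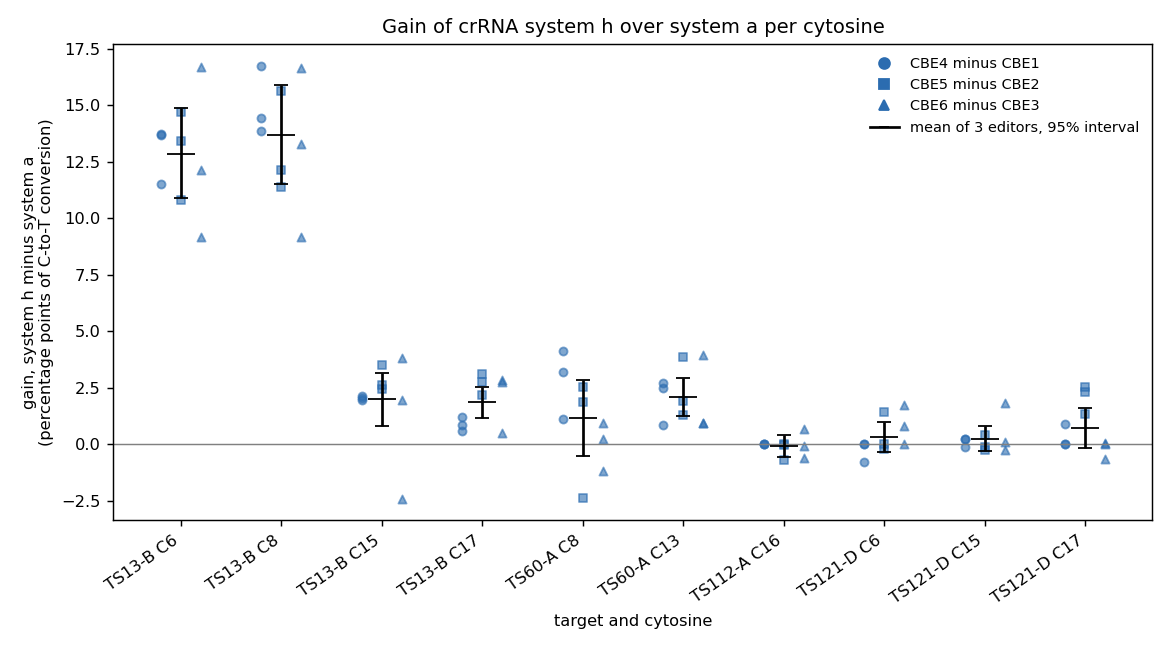
Gain of system h over system a in percentage points of C-to-T conversion at each listed cytosine. Blue points are differences between columns of equal replicate number, 3 for each editor pair, and black bars are the mean over the editors with its 95% interval from the permutation test. The intervals of the 4 TS13-B cytosines and of C13 of TS60-A lie above 0, and that of C16 of TS112-A reaches from -0.56 to 0.40.

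At TS60-A, C13 rose and C8 did not pass the test. At C8, the base nearer the PAM, CBE1 gave 4.51%, 2.31% and 3.24% and CBE4 gave 5.63%, 5.52% and 7.39%, without overlap. CBE2 gave 4.26%, 5.98% and 8.81% against 6.79%, 7.84% and 6.45% with CBE5. CBE3 gave 7.79%, 8.92% and 4.47% against 8.04%, 7.73% and 5.42% with CBE6. For both editors with D156R the cassettes overlapped, and the means of CBE3 and CBE6 were 7.06% each. The gain at C8 over the editors was 1.17 points with a 95% interval of -0.50 to 2.85 (exact permutation p = 0.153, adjusted p = 0.218), so a gain of up to 2.85 points cannot be told from none.

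C13, further from the PAM, was converted less than C8. CBE1 gave 0.55%, 0.63% and 0% and CBE4 gave 3.25%, 1.48% and 2.49%. CBE2 gave 1.43%, 2.87% and 1.79% against 5.3%, 4.79% and 3.07% with CBE5. CBE3 gave 1.26%, 2.91% and 2.25% against 5.21%, 3.85% and 3.21% with CBE6. The cassettes did not overlap within any editor, and the gain was 2.11 points (95% interval 1.27 to 2.93, exact permutation p = 0.00025, adjusted p = 0.000625), from a mean of 1.52% to 3.63%.

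The mean of both cytosines was 1.87% ± 0.57 (SD, n = 3) with CBE1 against 4.29% ± 0.73 with CBE4, without overlap. It was 4.19% ± 1.24 with CBE2 against 5.71% ± 0.83 with CBE5, and 4.60% ± 1.28 with CBE3 against 5.58% ± 1.17 with CBE6, and these pairs overlapped. The gain of the target was 1.64 points (95% interval 0.63 to 2.63, exact permutation p = 0.00575, adjusted p = 0.0115). This call was lost without replicate 1 (1.26 points, adjusted p = 0.204 by exact permutation), without replicate 2 (1.82 points, 0.0741), without the CBE4 and CBE1 pair (1.25 points, 0.17), without the CBE5 and CBE2 pair (1.70 points, 0.06), and when C8 alone stood for the target (1.17 points, 0.203).

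TS112-A showed no detectable gain. Its single listed cytosine, C16, was listed at 0 in all 3 replicates of CBE1 and all 3 of CBE4, and in the 3 control replicates. CBE2 gave 1.39%, 1.31% and 1.32% and CBE5 gave 0.69%, 1.33% and 1.31%. CBE3 gave 4.03%, 2.76% and 1.77% and CBE6 gave 3.42%, 2.7% and 2.44%. By editor the means were 0% for the earliest, 1.34% and 1.11% for the editor with XTEN, and 2.85% for both cassettes with the 6xGGGGS linker. The difference between the cassettes was -0.08 points with a 95% interval of -0.56 to 0.40 (exact permutation p = 0.735, adjusted p = 0.735 among targets). The upper end of the interval is 0.40 points, where the gain at TS13-B was 7.62 points. The CBE4 and CBE1 pair, at 0 throughout, adds no spread to this interval. Single differences between the cassettes ran from -0.7 to 0.02 points for CBE5 and CBE2. For CBE6 and CBE3 they ran from -1.59 to 1.65 points.

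TS121-D had the lowest target mean over the editors with each cassette, although TS112-A was lower with CBE1, CBE4 and CBE5. With system a, 12 of its 27 values were listed at 0, and with system h 11 of 27. At C6, CBE1 gave 0%, 0% and 0.8% and CBE4 was listed at 0 in all 3 replicates. CBE2 gave 0.22%, 0% and 0% against 0%, 1.42% and 0% with CBE5. CBE3 gave 1.04%, 0% and 0% against 1.84%, 0% and 1.73% with CBE6. All of these ranges overlapped, and the gain at C6 was 0.33 points (95% interval -0.34 to 0.99, exact permutation p = 0.375, adjusted p = 0.46). C15 ran from 0% to 1.04% with system a and from 0% to 2.07% with system h, with a median of 0.23% in both, against control values of 0%, 0.24% and 0.27%. Its gain was 0.24 points (95% interval -0.28 to 0.81, exact permutation p = 0.414, adjusted p = 0.46), and 0.03 points without replicate 1.

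C17 of TS121-D held the one separated pair of that target. CBE2 gave 0%, 1.91% and 0.28% there and CBE5 gave 2.55%, 3.26% and 2.6%. CBE3 gave 1.75%, 0.65% and 0.21% and CBE6 gave 1.81%, 0% and 0.23%. CBE1 was listed at 0 in all 3 replicates and CBE4 gave 0%, 0.91% and 0%. The gain was thus 2.07 points for the editor with XTEN and -0.19 points for the editor with the 6xGGGGS linker. The SD of these differences without pairing of replicates was 1.10 and 1.26 points. The test between editors at this base, on differences between columns of equal replicate number, gave an exact permutation p = 0.0214. It did not pass after adjustment over 10 cytosines (0.214). Over the editors the gain at C17 was 0.73 points (95% interval -0.18 to 1.62, exact permutation p = 0.09, adjusted p = 0.15).

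The target mean of TS121-D was 0.127% ± 0.134 (SD, n = 3) with CBE1 and 0.180% ± 0.173 with CBE4. It was 0.443% ± 0.468 with CBE2 and 1.28% ± 0.67 with CBE5. It was 0.480% ± 0.463 with CBE3 and 0.888% ± 0.960 with CBE6. In each of these pairs the replicates of the cassettes overlapped. Its gain of 0.43 points had a 95% interval of -0.12 to 0.98 (exact permutation p = 0.122, adjusted p = 0.162).

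**Figure D3:**
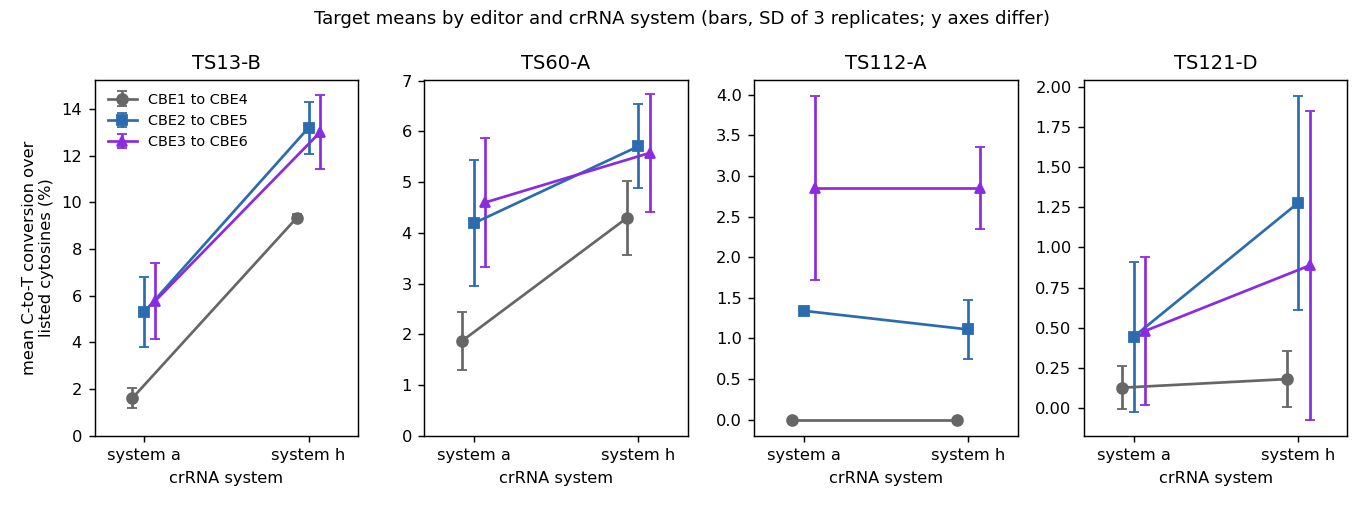
Mean C-to-T conversion (%) over the listed cytosines of each target with system a and system h. Lines join the versions that share an editor, points are means and bars SD of 3 replicates, and the y axes differ between the 4 panels. The lines climb by 7.22 to 7.90 points at TS13-B. At TS112-A the line from CBE2 to CBE5 changes by -0.23 points and the others stay flat.

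The gain in points differed between targets. It was 7.62 points at TS13-B, 1.64 at TS60-A, 0.43 at TS121-D and -0.08 at TS112-A, and a permutation of the target names within each of the 9 comparisons gave p = 1e-05, the smallest that 100000 resamples can give. In exact sign flips over the 9 comparisons, TS13-B exceeded each other target in 9 of 9, by 5.98 to 7.69 points (adjusted p = 0.00781 over 6 pairs). TS60-A exceeded TS112-A by 1.71 points (adjusted p = 0.0352 by exact sign flips) and TS121-D by 1.21 points (adjusted p = 0.0422). TS112-A and TS121-D were not separated, with a difference of -0.51 points (adjusted p = 0.0742 by exact sign flips). These comparisons pair columns by replicate number, and targets share cells. They were made in points, and the levels with system a differed, at 4.23% for TS13-B and 0.35% for TS121-D. As ratios of means the gain was 2.80-fold at TS13-B and 2.23-fold at TS121-D. On log2 scales the same permutation of target names over all 4 targets also passed. The gains then spanned 1.75 with 0.1 percent added (permutation p = 0.0024) and 1.60 with 0.5 percent added (permutation p = 4e-05). Pairs of targets were not tested on those scales. The order of TS60-A and TS121-D turned on other scales, with ratios of means of 1.46-fold and 2.23-fold and log2 gains of 0.65 and 0.71 with 0.1 percent added, but not with 0.5 percent added (0.58 and 0.47). Those orders were not tested.

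The base before a listed cytosine was compared as a description, because A3A is known to prefer cytosines that follow T. Among the listed cytosines only C16 of TS112-A and C17 of TS121-D follow T, and neither passed the test for a gain. C2, C4 and C22 of TS60-A and C2, C4 and C20 of TS121-D also follow T but had no listed values. Of the 4 listed cytosines that follow A, C6, C15 and C17 of TS13-B rose and C8 of TS60-A did not pass. Of the 3 that follow G, C8 of TS13-B and C13 of TS60-A rose and C15 of TS121-D did not pass. The only listed cytosine that follows C, C6 of TS121-D, did not pass. The cytosines that rose came from TS13-B except C13 of TS60-A. By position, C6, C15 and C17 rose at TS13-B and the same positions did not pass at TS121-D.

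Between editors the gain was separated as a ratio of the 4-target means and not in points. Over the 4 targets, CBE1 gave 1.07%, 0.880% and 0.759% in its replicates and CBE4 gave 3.49%, 3.26% and 3.61%, a gain of 2.55 points. CBE2 gave 2.13%, 2.88% and 3.44% and CBE5 gave 5.20%, 5.45% and 5.32%, a gain of 2.51 points. CBE3 gave 4.29%, 3.37% and 2.63% and CBE6 gave 5.92%, 5.25% and 5.57%, a gain of 2.15 points. The SD of these differences without pairing of replicates was 0.24, 0.67 and 0.90 points in that order. The cassettes did not overlap within any editor, where a permutation of 3 against 3 replicates cannot go below p = 0.10. The 3 gains spanned 0.40 points. Exact permutation of the editor names over the 9 gains between columns of equal replicate number gave p = 0.607.

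As ratios of means the same gains were 3.82-fold for the earliest editor, 1.89-fold for the editor with XTEN and 1.63-fold for the editor with 6xGGGGS. On a log2 scale with 0.1 percent added to each 4-target mean, the gains were 1.83 ± 0.25, 0.92 ± 0.32 and 0.71 ± 0.31. These are SDs over differences between columns of equal replicate number (n = 3). The same permutation of editor names, over those differences, gave p = 0.0179 (exact permutation). With the logarithm taken of each single value before averaging, a setting chosen after the data were seen, the gains were 1.15, 0.73 and 0.54 and the exact permutation p was 0.114. With system a, CBE2 and CBE3 stood 3.12-fold and 3.79-fold above CBE1, and with system h, CBE5 and CBE6 stood 1.54-fold and 1.61-fold above CBE4. The spread between replicates of the 4-target mean was 0.159 to 0.834 points (SD) with system a and 0.126 to 0.334 points with system h.

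Where in the protospacer the conversion fell was then compared between cassettes. Shares were taken within each column and then averaged, so they are not shares of conversion summed over columns. At TS13-B the mean share of C15 and C17 together was 12.9% with system h and 12.5% with system a. The difference was 0.42 points with a 95% interval of -3.22 to 3.85 (exact permutation p = 0.814). By version the share ran from 9.45% ± 3.22 (SD, n = 3) for CBE1 to 15.8% ± 6.78 for CBE3 with system a, and from 9.56% ± 1.53 for CBE4 to 15.6% ± 2.23 for CBE5 with system h. The direction of this difference turned to -0.55 points without replicate 2, to -0.04 points without replicate 3 and to -1.01 points without the CBE5 and CBE2 pair. With values up to the highest control value of a cytosine set to 0 it was 2.52 points (exact permutation p = 0.213).

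A pair of further shares was computed after the values had been seen. The mean share of C13 in the conversion of TS60-A was 34.1% with system h and 19.9% with system a. The difference was 14.2 points (95% interval 6.65 to 21.8, exact permutation p = 0.002). By version this share was 10.8% ± 10.7 (SD, n = 3) with CBE1 and 27.6% ± 8.01 with CBE4. It was 24.8% ± 7.78 with CBE2 and 38.0% ± 5.80 with CBE5. It was 24.0% ± 9.79 with CBE3 and 36.6% ± 3.08 with CBE6. The mean share was thus higher with system h for each editor. Without replicate 1 the difference was 9.69 points and the exact permutation p = 0.0741. At TS13-B, the mean share of C6 in the conversion at C6 and C8 was 46.1% with system h and 41.1% with system a. The difference was 5.07 points (95% interval 2.35 to 8.59, exact permutation p = 0.0005). C8 was nonetheless above C6 in 9 of 9 columns of each cassette. C6 stood at 0.752 to 0.917 of C8 with system h and at 0.384 to 0.810 with system a, and the lowest ratio came from replicate 3 of CBE1. Without replicate 3 the difference in the C6 share was 3.21 points (exact permutation p = 0.00926).

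**Figure D4:**
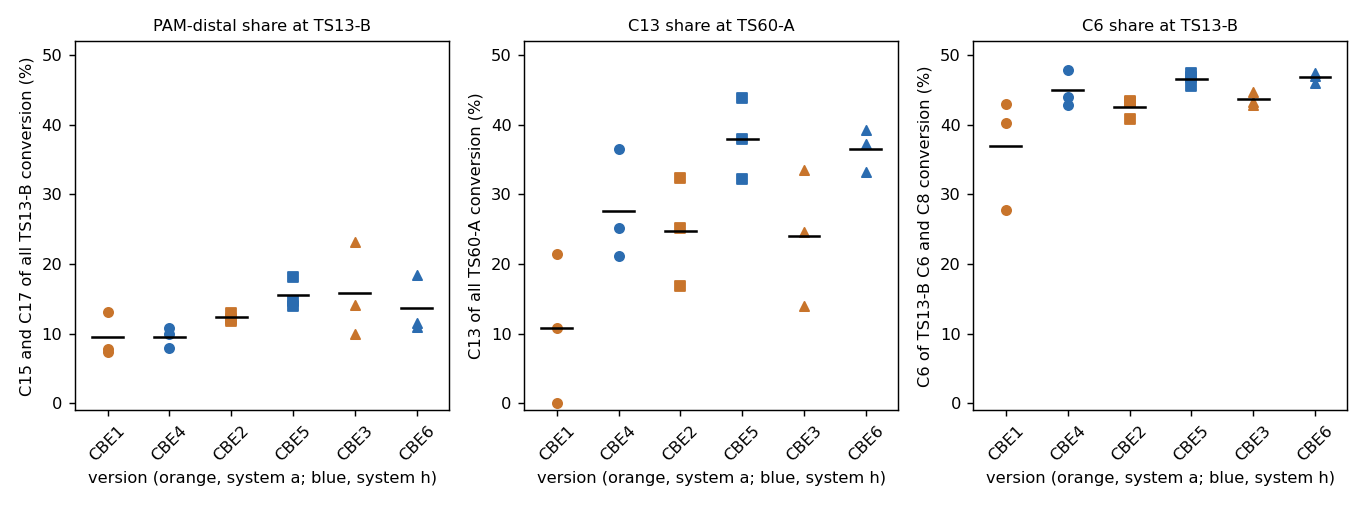
Share (%) of a target's summed C-to-T conversion at C15 and C17 of TS13-B, at C13 of TS60-A, and at C6 relative to C6 and C8 of TS13-B, for each version. Points are replicates and bars means of 3 replicates, orange for system a and blue for system h. The C13 share averages 34.1% with system h and 19.9% with system a, while the share of C15 and C17 averages 12.9% and 12.5%.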

How the data were processed

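The authors sorted GFP-positive protoplasts, sequenced amplicons of each target and ran CRISPResso2. The deposited values are the percent of reads with C-to-T at a cytosine, and they were used without filter or normalization. The 18 columns of versions and 3 control columns come from 3 libraries, and columns of equal number were taken as the same library. The methods state independent biological replicates. Values were averaged over cytosines, then over 4 targets. The cassette label was permuted within each editor (8000 arrangements, two-sided), intervals are the shifts not rejected by that test, and p-values were adjusted by Benjamini-Hochberg over 4 targets, 10 cytosines or 6 target pairs. Editor names were permuted over 9 gains, taken between columns of equal replicate number (all arrangements). All targets, listed cytosines and versions are named. Members and lists were chosen with earlier results of these data known. Tests were checked on simulated normal values of equal spread (Python 3.11.15, NumPy 2.4.6, SciPy 1.17.1). That check does not cover values listed at 0 or unequal spread. Equal replicate numbers gave no steady sign of pairing. The correlation of their deviations over 10 cytosines ran from -0.85 to 0.72 and was over 0.1 in 4 of 9 cases. With 3 replicates, and cytosines that share amplicons, this check cannot exclude pairing. Alternatives were the most edited cytosine, equal weight of cytosines, log2 scales, a background limit, a replicate block, left-out replicates, editors and TS13-B, and the methods' Kruskal-Wallis and Dunn test.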

Additional observations from a re-analysis of the deposited data

Results flagged for a closer look

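The gain of system h differed between editors on a log2 scale of the 4-target means, and not with the logarithm taken of each single value before averaging (0.61, exact permutation p = 0.114). With 0.1 percent added to each 4-target mean, the log2 gain of the earliest editor (CBE4 over CBE1) exceeded that of the editor with the 6xGGGGS linker (CBE6 over CBE3) by 1.12 (exact permutation over 9 gains, p = 0.0179). In percentage points the same editors differed by 0.40 (p = 0.607, exact permutation). Levels with system a differed as well, 0.904% for CBE1 against 3.43% for CBE3, and the part of these starting levels in the result was not tested. Within targets the test did not pass on the log2 scale after adjustment, with the lowest adjusted p = 0.1 at TS13-B (exact permutation, raw p = 0.025).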

How the results depend on the processing

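The gain over the 4 targets and the gain at TS13-B kept their direction and passed under every alternative tested by permutation or sign flips. The gain over the targets was 2.32 to 2.46 points when a replicate was left out and 0.66 points (exact permutation p = 0.0125) without TS13-B. The gain by editor (CBE4 over CBE1, CBE5 over CBE2 and CBE6 over CBE3, in that order) was 4.54, 3.89 and 3.21 points at the most edited cytosines, 3.59, 3.69 and 3.20 with all cytosines weighted equally, and 0.82, 0.71 and 0.46 without TS13-B. On log2 scales it was 1.83, 0.92 and 0.71 with 0.1 percent added, 1.50, 0.83 and 0.65 with 0.5 percent added, and 1.15, 0.73 and 0.54 for single values. The difference between editors then spanned 1.12 (p = 0.0179), 0.85 (p = 0.0214) and 0.61 (p = 0.114, exact permutation). With replicates left out it spanned 0.35 to 1.06 points, where p cannot go below 0.0667. The methods' Dunn test was run over 30 pooled points per version, which treats cytosines and replicates as independent. Mean ranks differed by 29.5, 24.4 and 17.5 in the same order of editors. The Dunn p was 0.0278, 0.0694 and 0.193 without adjustment. None of these passed after Benjamini-Hochberg adjustment over 15 pairs (0.0835, 0.122 and 0.263). That adjustment was chosen here, and the paper names none for its Dunn test. The number of targets with a gain fell from 2 to 1 at the most edited cytosine, and was 1 to 2 without a replicate and 1 without the CBE4 and CBE1 or the CBE5 and CBE2 pair. TS60-A was the target lost, at 1.17 points for the most edited cytosine, 1.26 without replicate 1, 1.82 without replicate 2, and 1.25 and 1.70 without those pairs. It was kept at 1.83 points without replicate 3. TS112-A ranged from -0.23 to 0.10 points and the share of C15 and C17 at TS13-B from -0.55 to 1.84 points without a replicate. That share was -1.01 points without the CBE5 and CBE2 pair and 2.52 points with values up to the highest control value set to 0. With equal replicate numbers as a block (exact sign flips over 9 gains), the gain over the targets was 2.40 points with an exact p = 0.00391 and no call changed. The cause of these changes was not tested. The table holds no read numbers, so counting error was not computed here.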
